A study of Homo sapiens with 6 samples.

Results

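The genes described here are 33 members of the autophagy and lysosome system, chosen by symbol from the deposited gene count table: 8 lysosomal hydrolases, 5 proteins of the lysosomal membrane or of lipid export, 3 subunits of the proton pump, 2 transcription factors, 1 autophagy receptor and 14 proteins that build the autophagosome. All 33 were found among the 58735 genes of the table, each under 1 identifier, and all 33 were among the 14844 genes that passed the filter on low counts and were tested. RNA-seq libraries came from Mum-2b, a human cell line labelled uveal melanoma, a tumour of the pigment cells of the eye. An shRNA (short hairpin RNA) against NELFCD was used for 3 knockdown libraries, set against 3 control libraries of WT genotype; no other treatment or time is given. NELFCD belongs to the negative elongation complex NELF, which holds RNA polymerase II shortly after it starts a transcript. All knockdown titles name the same hairpin, so what it does through NELFCD cannot be told apart from what it may do elsewhere, and nothing says whether the replicates were separate cultures, so the p-values measure only the spread between these libraries, which may be technical.

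Autophagy encloses parts of the cytoplasm in a double membrane, the autophagosome, which then fuses with the lysosome, where acid hydrolases degrade the content. The kinase ULK1 and the class III phosphatidylinositol 3-kinase with beclin start the process, ATG2 and WIPI proteins feed and shape the growing membrane, and a ubiquitin-like conjugation system attaches proteins of the ATG8 family (LC3 and GABARAP) to it. TFEB and TFE3, relatives of the melanocyte factor MITF, bind E-boxes in the promoters of many lysosomal genes, a sequence class known as the CLEAR element, and enter the nucleus when nutrients are short.

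Total counts were 14600333 to 16656630 in the knockdown libraries and 14306733 to 16106948 in the control libraries. NELFCD was at 20.7, 37.4 and 40.3 CPM (counts scaled to a common library size) in knockdown replicates 1 to 3, against 65.5, 88.3 and 83.5 CPM in control replicates 1 to 3, and the groups did not overlap. Melanocyte markers were low. The 8 checked summed to 7.61 to 18.3 CPM in the knockdown and 7.50 to 10.8 CPM in the control libraries; TYR and S100B had at most 1 count in any library, and of the 8 markers TYRP1, MITF and MLANA passed the filter. Replicate 1 of both groups stood apart from replicates 2 and 3 in many genes, so values are given per library and per replicate pair, a pair being the knockdown and the control library of the same number.

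The CLEAR element is shown first, because it is a sequence that the promoters of several members share. The element is known from lysosomal genes and the members were chosen as such, so a raised share is not independent of that choice. Promoter windows of RefSeq (GRCh38.p14, from 250 bases before to 50 bases after a start site) were held for 28 of the 33 members, in 34 windows. The 6 letters CACGTG, which read the same on both strands, occurred in 7 of the 34 windows (20.6%), against 7.26% of all 35116 promoter windows. The longer TCACGTGA, which contains them and is a palindrome as well, occurred in 5 of 34 (14.7%) against 0.98% of all windows. Other autophagy and lysosome genes, from a longer list, held CACGTG in 28 of 161 windows (17.4%) and TCACGTGA in 15 of 161 (9.32%). The windows below, 30 bases on the strand of the gene, carry CACGTG in capitals, with the position of its first base counted back from the start site.
CTSA (chr20:45891298-45891327, plus strand, position -25): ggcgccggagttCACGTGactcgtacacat
GAA (chr17:80101493-80101522, plus strand, position -76): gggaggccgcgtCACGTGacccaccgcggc
GAA (chr17:80101538-80101567, plus strand, position -31): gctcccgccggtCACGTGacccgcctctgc
MCOLN1 (chr19:7522598-7522627, plus strand, position -14): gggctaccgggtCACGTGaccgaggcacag
LAMP1 (chr13:113297199-113297228, plus strand, position -28): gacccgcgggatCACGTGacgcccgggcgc
ATP6V0D1 (chr16:67481199-67481228, minus strand, position -59): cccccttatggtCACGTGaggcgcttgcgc
CTSD (chr11:1763957-1763986, minus strand, position -47): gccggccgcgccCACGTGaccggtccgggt
ATG14 (chr14:55411834-55411863, minus strand, position -21): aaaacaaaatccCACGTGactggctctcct
The 5 genes with TCACGTGA were CTSA, GAA, MCOLN1, LAMP1 and ATP6V0D1. LAMP1 carried CACGTG 6 times in its window, and CTSA, GAA and MCOLN1 carried it 2 times each, so not every occurrence is printed. A match describes letters only and is not a binding site, and no test was made of these shares.

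In the knockdown, 4 of the 33 members rose and 4 fell. The rises were the lysosomal hydrolases GLA, GAA and CTSA and the ATG8 protein gene MAP1LC3B, 1.24-fold to 1.29-fold in the fit, and the falls were GABARAPL1, another ATG8 gene, the initiating kinase ULK1 and the conjugation genes ATG16L1 and ATG5. The 8 calls are 24.2% of the members, against 13.5% of all genes tested, and by direction 12.1% of members rose against 5.48% of all genes and 12.1% fell against 8.01%. Of all calls 40.6% were rises, and 54.9% were with upper-quartile scaling. These calls come from edgeR's quasi-likelihood test with the replicate number as a block and Benjamini-Hochberg adjustment over all genes, with adjusted p under 0.05. Without the block edgeR called 0 genes of 14844 and 0 members, with 2 members (ATG16L1 and CTSA) at an unadjusted p under 0.05, 6.06% against 6.43% of all genes. DESeq2 called 5 members with the block (15.2% against 9.15% of all genes) and 0 without it (against 1.08%). The 8 member calls therefore rest on setting libraries of the same number against each other. The members' median log2 fold change was -0.0076, against 0.0001 over all genes tested, and 15 of 33 lay above 0, against 50% of all genes; this median was 0.0055 without the block. All 3 replicate pairs were positive in 12 members (36.4% against 25.9% of all genes) and negative in 9 (27.3% against 26.9%). In bulk RNA a change in the share of a kind of cell and a change of RNA per cell cannot be told apart.

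**Figure D1:**
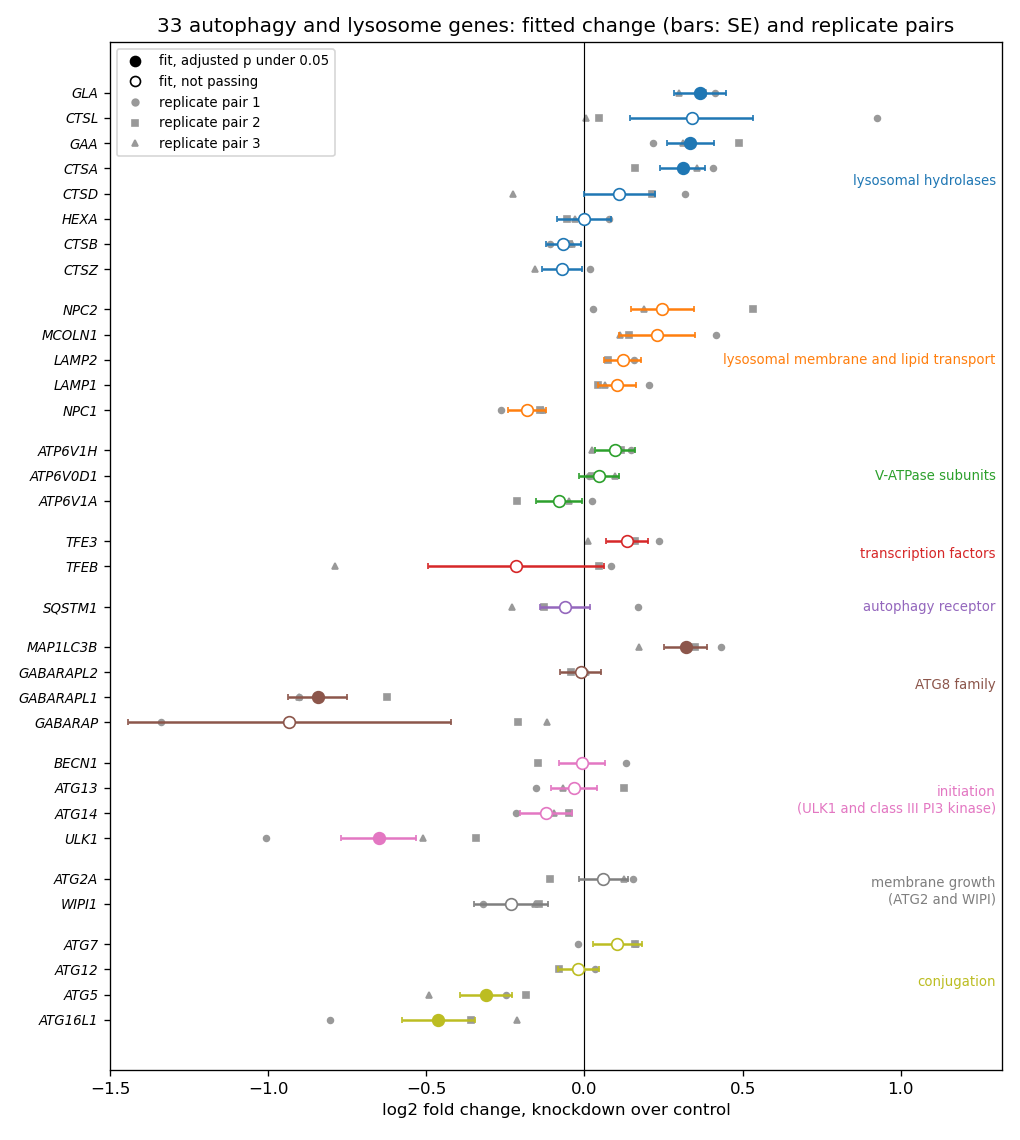
Fitted log2 fold change (knockdown over control, horizontal axis) of the 33 members, arranged by role, with bars of 1 standard error; filled points passed an adjusted p under 0.05, and small grey marks are the 3 replicate pairs. GLA, GAA, CTSA and MAP1LC3B lie right of 0 and GABARAPL1, ULK1, ATG16L1 and ATG5 left of it, in each of their 3 pairs.

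Among the hydrolases, GLA, which encodes alpha-galactosidase A, the enzyme of globotriaosylceramide breakdown that is deficient in Fabry disease, rose (ENSG00000102393, hg38 chromosome X, 101397803 to 101408012). GLA was at 26.3, 43.8 and 35.1 CPM in knockdown replicates 1 to 3, against 19.6, 33.7 and 28.5 CPM in control replicates 1 to 3. The groups overlapped, since replicate 1 was the lowest library of each, but the knockdown was at 133.9%, 130.0% and 123.3% of the control in pairs 1 to 3. Its log2 fold change was 0.37 ± 0.08 (SE; edgeR adjusted p = 0.0225 with the block and 1 without it).

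GAA, acid alpha-glucosidase, the glycogen-degrading enzyme missing in Pompe disease, rose as well (ENSG00000171298, chromosome 17, 80101556 to 80119879). GAA was at 133.6, 55.6 and 55.2 CPM in the knockdown and 114.9, 39.5 and 44.4 CPM in the control, replicates 1 to 3. Replicate 1 was the highest library of both groups, and the knockdown stood at 116.2%, 140.8% and 124.3% of the control by pair. The log2 fold change was 0.33 ± 0.07 (SE; edgeR adjusted p = 0.0217 with the block and 1 without it). The GAA promoter window holds TCACGTGA 2 times, in both stretches printed above, and those of MCOLN1 and LAMP1 also hold it 2 times each. CTSA, which rose, holds TCACGTGA too, but GLA and MAP1LC3B, which rose as well, hold no CACGTG in theirs. LAMP1, MCOLN1 and ATP6V0D1 hold TCACGTGA and did not pass (edgeR adjusted p of 0.238 to 0.674). A relation between these letters and the changes was not tested.

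CTSA, cathepsin A, a carboxypeptidase that also shields beta-galactosidase and neuraminidase in the lysosome, rose without overlap of the groups (ENSG00000064601, chromosome 20, 45890144 to 45898820). CTSA was at 94.8, 80.3 and 87.0 CPM in the knockdown and 71.4, 71.8 and 67.9 CPM in the control. Every knockdown library lay above every control library, and the log2 fold change was 0.31 ± 0.07 (SE; edgeR adjusted p = 0.0247 with the block and 0.715 without it). The exact two-sided permutation p of 3 against 3 libraries cannot go below 0.1, the value such a separation gives. Of the exon bases of CTSA 28.5% lie opposite exons of PLTP, NEURL2 and AL008726.1, and whether counting used strand was not given in the sources used here, but none of these genes had more than 12 counts in a library.

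The 5 other hydrolases did not pass. CTSB, the cysteine protease cathepsin B and the hydrolase with the highest CPM, was at 573.9, 423.4 and 415.5 CPM in the knockdown and 619.4, 438.4 and 427.2 CPM in the control (log2 fold change -0.07 ± 0.05, SE; edgeR adjusted p = 0.451). CTSL, cathepsin L, was at 262.9, 83.7 and 78.3 CPM in the knockdown and 138.2, 81.1 and 78.1 CPM in the control. Its difference was in pair 1 (0.93 on the log2 scale) and near 0 in pairs 2 and 3 (0.045 and 0.0042), and with the 3 pairs together the edgeR adjusted p was 0.309. Without pair 3 CTSL passed (adjusted p = 0.00691 in edgeR), as did 11.6% of all genes, on 1 residual degree of freedom. The aspartic protease gene CTSD (0.11), the beta-hexosaminidase subunit gene HEXA (-0.001) and cathepsin Z (-0.07) had edgeR adjusted p of 0.484 to 0.996. Of the exon bases of CTSD 41.7% are shared on the same strand with AC068580.4, which leaves its count uncertain, although that gene had at most 4 counts in a library.

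CTSZ is the neighbour of the knocked-down gene. Its annotated 3′ end on chromosome 20 (58995185, minus strand) lies 51 bases from the end of NELFCD (58995133, plus strand), the genes facing each other tail to tail. CTSZ was at 149.2, 176.1 and 167.8 CPM in the knockdown and 147.6, 184.9 and 187.2 CPM in the control, with overlapping groups and an edgeR adjusted p of 0.484. Without pair 1 CTSZ passed at a log2 fold change of -0.12 (adjusted p = 0.0142 in edgeR). That fit had 1 residual degree of freedom and called 27.6% of all genes.

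**Figure D2:**
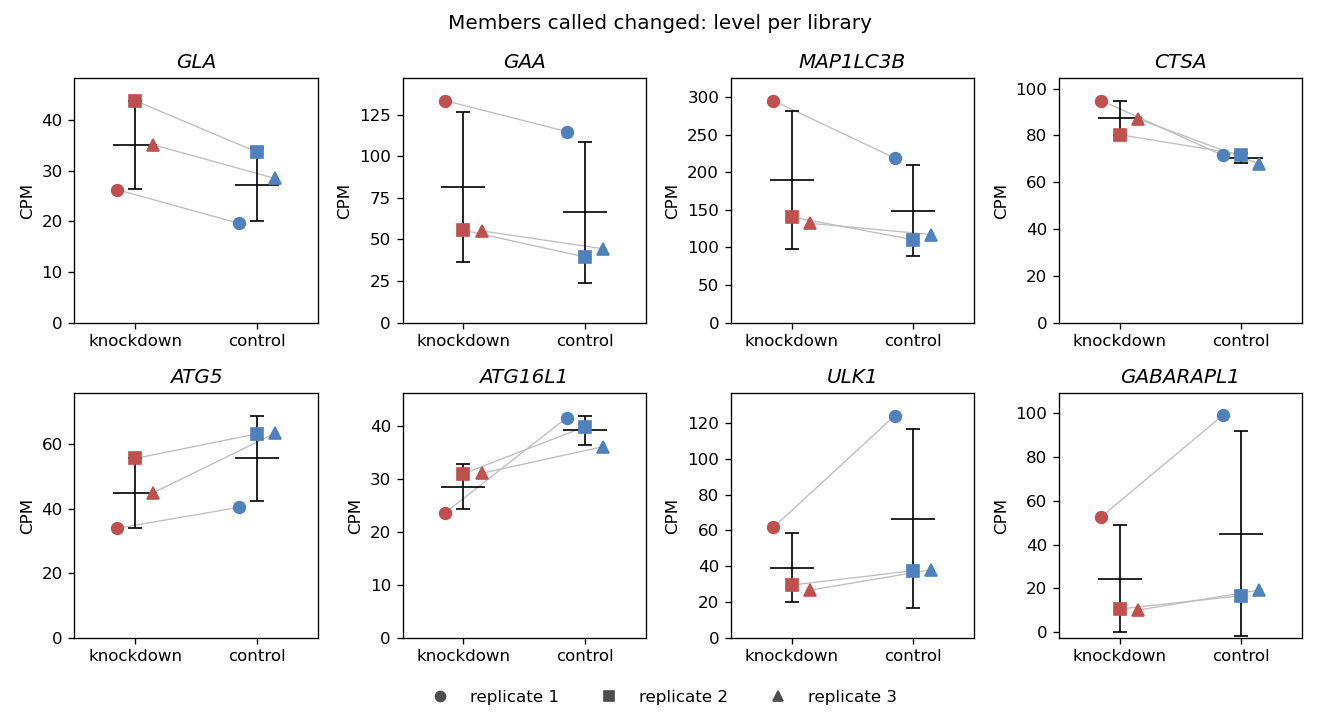
CPM (vertical axis) of the 8 members called changed, in knockdown libraries (red, left) and control libraries (blue, right) of replicates 1 to 3, with grey lines joining libraries of the same number, and group mean and standard deviation in black. CTSA and ATG16L1 separate the groups, and in the other 6 genes replicate 1 is the highest or lowest library of both groups while the 3 lines slope the same way.

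Of the 5 genes of the lysosomal membrane and lipid export 0 passed in edgeR with the block or without it. LAMP1, with LAMP2 the main glycoprotein of the lysosomal membrane, was at 283.6, 360.5 and 365.2 CPM in the knockdown and 246.1, 350.3 and 349.1 CPM in the control. LAMP2 was at 168.3, 155.2 and 158.2 CPM in the knockdown and 150.9, 147.2 and 144.8 CPM in the control, so that its groups did not overlap. Its log2 fold change was small, 0.12 ± 0.06 (SE; edgeR adjusted p = 0.204). Knockdown libraries lay above all control libraries in 2 members (CTSA and LAMP2), 6.06% against 7.52% of all genes, and below them in 1 (ATG16L1), 3.03% against 7.38%.

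NPC1 and NPC2, a membrane protein and a soluble carrier that hand cholesterol out of the lysosome, had fold changes of opposite sign. NPC1 was at 380.1, 148.1 and 146.3 CPM in the knockdown and 456.4, 163.4 and 160.3 CPM in the control (log2 fold change -0.18 ± 0.06, SE), lower in each of the 3 pairs, with an edgeR adjusted p of 0.0789. NPC2 was at 59.8, 48.0 and 43.1 CPM in the knockdown and 58.7, 33.1 and 37.8 CPM in the control (0.25 ± 0.10, SE), higher in each pair, with an adjusted p of 0.137 in edgeR. Both passed in replicates 2 and 3 alone (edgeR adjusted p of 0.00471 for NPC1 and 4.52e-05 for NPC2). In that fit 27.6% of all genes passed, on 1 residual degree of freedom. MCOLN1, the calcium channel of the lysosome, had a log2 fold change of 0.23 ± 0.12 (SE; edgeR adjusted p = 0.238), with 13.8 ± 1.02 CPM in the knockdown and 11.8 ± 1.92 CPM in the control (SD, n = 3 each).

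Of the 3 subunits of the vacuolar ATPase, the pump that acidifies the lysosome, 0 passed. ATP6V1H was at 88.1, 96.8 and 92.9 CPM in the knockdown and 79.4, 89.3 and 91.4 CPM in the control. The log2 fold changes were 0.10 for ATP6V1H, 0.046 for ATP6V0D1 and -0.08 for the catalytic subunit ATP6V1A, with edgeR adjusted p of 0.347 to 0.674 and overlapping groups in all 3.

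Neither transcription factor passed. TFE3 was at 148.2, 163.0 and 162.6 CPM in the knockdown and 125.8, 145.7 and 161.5 CPM in the control (log2 fold change 0.14 ± 0.07, SE; edgeR adjusted p = 0.204). TFEB was at 5.92, 1.70 and 1.17 CPM in the knockdown and 5.55, 1.63 and 2.38 CPM in the control (-0.22 ± 0.28, SE; adjusted p = 0.652 in edgeR). Per gene length, in the deposited FPKM, which scale counts by gene length and library size, TFE3 averaged 36.3 ± 2.70 in the knockdown and 33.6 ± 4.55 in the control, against 0.503 ± 0.437 and 0.559 ± 0.357 FPKM for TFEB (SD, n = 3 each), so TFE3 was the higher of the pair in every library. Their activity depends on where the proteins are in the cell, which RNA levels do not show.

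SQSTM1, which encodes the receptor p62 that links ubiquitinated cargo to ATG8 proteins, was at 875.2, 337.6 and 336.6 CPM in the knockdown and 778.8, 369.3 and 394.4 CPM in the control. The pairs differed in sign, with 0.17 in pair 1 and -0.13 and -0.23 in pairs 2 and 3 on the log2 scale, and SQSTM1 did not pass (edgeR adjusted p = 0.644). It passed at -0.18 without pair 1 (adjusted p = 4.06e-08 in edgeR), where 27.6% of all genes passed on 1 residual degree of freedom. Exons of MGAT4B and MRNIP lie opposite 22.0% of the exon bases of SQSTM1, and without strand their reads cannot be told apart there. Exons of other genes also lie opposite 28.1% of those of WIPI1, 18.1% of ATG7, 17.1% of BECN1, 15.8% of CTSD and 13.0% of HEXA.

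The ATG8 family, whose proteins are joined to the lipid of the growing membrane and hold cargo receptors, held a rise and a fall. GABARAPL1 fell (ENSG00000139112, chromosome 12, 10212458 to 10223130), being at 52.8, 10.6 and 10.1 CPM in the knockdown and 99.1, 16.6 and 19.3 CPM in the control. Replicate 1 was several times higher than replicates 2 and 3 in both groups, and within each pair the knockdown was lower, at 53.2%, 63.7% and 52.3% of the control. The log2 fold change was -0.84 ± 0.09 (SE; edgeR adjusted p = 0.00136 with the block and 1 without it), and GABARAPL1 had the smallest adjusted p of the members.

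MAP1LC3B, the LC3 gene whose lipidated protein is the usual marker of autophagosomes, rose (ENSG00000140941, chromosome 16, 87383995 to 87404779). MAP1LC3B was at 295.5, 140.6 and 132.1 CPM in the knockdown and 219.0, 110.3 and 117.1 CPM in the control, 134.9%, 127.4% and 112.8% of the control by pair. The log2 fold change was 0.32 ± 0.07 (SE; edgeR adjusted p = 0.0183 with the block and 1 without it). Of the 50-base words in its longest coding transcript 10% also occur in its near copy MAP1LC3B2, which had 45 to 121 counts in the knockdown and 38 to 58 in the control libraries, so the division of some reads between them is uncertain. FBXO31 lies opposite 2.8% of its exon bases. GABARAPL2 was at 74.2, 57.7 and 57.0 CPM in the knockdown and 74.1, 59.5 and 56.7 CPM in the control, and its log2 fold change of -0.012 ± 0.06 (SE) did not pass (edgeR adjusted p = 0.923).

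GABARAP had the lowest level of all members per gene length, 0.223 ± 0.118 FPKM in the knockdown and 0.437 ± 0.187 FPKM in the control (SD, n = 3 each). Its raw counts were 4, 13 and 7 in the knockdown and 21, 14 and 9 in the control, and the log2 fold change of -0.93 ± 0.51 (SE) did not pass (edgeR adjusted p = 0.254). Of its exon bases 30.5% are shared on the same strand with AC120057.2 and 25.2% lie opposite AC120057.3, which had at most 1 and 9 counts in a library. The part of these shared exons in the low count was not tested.

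Among the genes that start autophagy, ULK1, the kinase at the head of the pathway and a target of mTORC1 and AMPK, fell (ENSG00000177169, chromosome 12, 131894651 to 131923167). ULK1 was at 61.7, 29.4 and 26.5 CPM in the knockdown and 124.4, 37.4 and 38.0 CPM in the control. The knockdown was at 49.6%, 78.5% and 69.8% of the control by pair, lowest in pair 1, and the log2 fold change was -0.65 ± 0.12 (SE; edgeR adjusted p = 0.0105 with the block and 1 without it). ATG13, the ULK1 partner, was at 79.4, 82.3 and 80.6 CPM in the knockdown and 88.3, 75.5 and 84.4 CPM in the control. ATG13 (-0.03), beclin gene BECN1 (-0.0076) and ATG14 (-0.12), which brings the lipid kinase to the site of assembly, did not pass in edgeR (adjusted p = 0.352 to 0.957).

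Of the lipid transfer gene ATG2A and the phosphoinositide reader WIPI1, 0 passed. ATG2A was at 77.5, 42.3 and 46.3 CPM in the knockdown and 69.6, 45.7 and 42.4 CPM in the control (log2 fold change 0.06; edgeR adjusted p = 0.654). WIPI1 was at 21.5, 7.51 and 6.51 CPM in the knockdown and 26.9, 8.35 and 7.32 CPM in the control, lower in each pair but not passing (-0.23 ± 0.12, SE; edgeR adjusted p = 0.220).

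The conjugation system, in which ATG7 activates ATG12, ATG12 is joined to ATG5, and ATG16L1 places the product on the membrane, held 2 falls among 4 genes. ATG16L1 fell (ENSG00000085978, chromosome 2, 233210051 to 233295674), at 23.5, 30.9 and 31.0 CPM in the knockdown and 41.5, 39.8 and 36.0 CPM in the control. All 3 knockdown libraries lay below all 3 control libraries, and the log2 fold change was -0.46 ± 0.12 (SE; edgeR adjusted p = 0.0328 with the block and 0.697 without it). ATG5 fell (ENSG00000057663, chromosome 6, 106045423 to 106325791), at 33.9, 55.6 and 45.0 CPM in the knockdown and 40.4, 63.2 and 63.3 CPM in the control.

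The groups of ATG5 overlapped, and the knockdown was at 84.0%, 87.9% and 71.0% of the control by pair, a log2 fold change of -0.31 ± 0.08 (SE; edgeR adjusted p = 0.0381 with the block and 1 without it). ATG12 was at 63.6, 73.1 and 71.3 CPM in the knockdown and 62.2, 77.4 and 71.7 CPM in the control, and ATG7 at 45.3 ± 6.98 CPM in the knockdown and 42.0 ± 3.62 CPM in the control (SD, n = 3 each). ATG12 (log2 fold change -0.019) and ATG7 (0.10) did not pass, with edgeR adjusted p of 0.870 and 0.404.

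GABARAPL1 and ULK1 passed in each of 7 alternatives that kept the block, while the other 6 calls were lost in at least 1. Without pair 1, 12 of 33 members passed (against 27.6% of all genes), without pair 2 it was 2 of 32 (against 6.09%) and without pair 3 it was 6 (against 11.6%). Without pair 2 GLA, GAA, CTSA, MAP1LC3B, ATG16L1 and ATG5 had edgeR adjusted p of 0.0541 to 0.181, and without pair 3 GLA, CTSA and ATG5 had 0.0536 to 0.286. DESeq2 with the block did not call GLA (adjusted p = 0.080), CTSA (0.0608) or ATG5 (0.083), and upper-quartile scaling in edgeR lost ATG5 (adjusted p = 0.0641).

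Several members also stood apart by replicate number. In replicate 1 of both groups 7 of 33 members (21.2%) were at least 2-fold above replicates 2 and 3, against 7.38% of all genes tested, and 0 were at least 2-fold below, against 4.04%. The 7 were GABARAPL1, WIPI1, ULK1, NPC1, GAA, TFEB and SQSTM1. Higher levels in replicate 1 were not particular to the members. With both groups together, the median log2 ratio of replicate 1 over replicates 2 and 3 was 0.11 in the members. It was 0.28 in the 134 tested genes of the longer list and 0.029 over all genes tested. GABARAPL1 stood 4.92-fold higher in knockdown replicate 1 and 5.41-fold higher in control replicate 1 than in replicates 2 and 3. ULK1 stood 2.19-fold higher in the knockdown and 3.27-fold higher in the control, and WIPI1 2.93-fold and 3.30-fold. GLA (0.67-fold in the knockdown and 0.64-fold in the control), ATG5 (0.68-fold and 0.64-fold) and ATP6V0D1 (0.64-fold and 0.66-fold) were lower in replicate 1 of both groups. The labels do not say what the number stands for, extraction used either of 2 kits without saying which for which library, and the part of either in these levels was not tested.

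**Figure D3:**
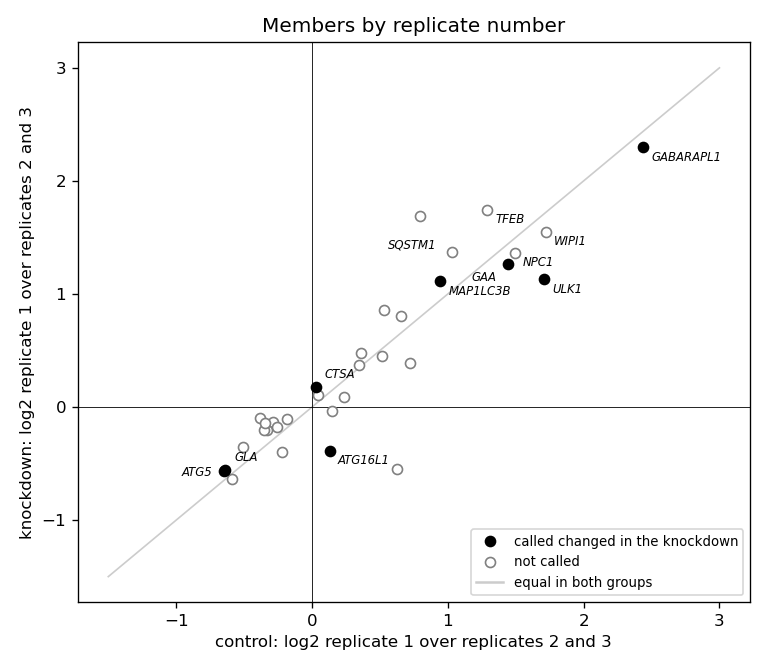
Log2 ratio of replicate 1 over replicates 2 and 3 for each of the 33 members, in control libraries (horizontal) and knockdown libraries (vertical); filled points are the 8 members called changed, and the grey line marks equal ratios. GABARAPL1 lies farthest out at 2.44 and 2.30, with ULK1, WIPI1, NPC1, GAA, TFEB and SQSTM1 above 1 on both axes.

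By level per gene length, the members with the highest FPKM were CTSZ (79.5 ± 8.25 in the knockdown and 84.9 ± 11.97 in the control), SQSTM1 (65.9 ± 38.0 and 66.7 ± 28.7) and CTSB (62.2 ± 10.3 and 66.3 ± 13.5; SD, n = 3 each), and their ranges over libraries overlapped one another. CTSL, LAMP1 and TFE3 followed. Of the autophagosome genes the highest were MAP1LC3B (34.9 ± 16.1 in the knockdown and 27.8 ± 10.9 in the control) and GABARAPL2 (20.4 ± 2.69 and 20.8 ± 2.76), while ATG16L1 was at 4.64 ± 0.788 and 6.44 ± 0.404 FPKM (SD, n = 3 each). HEXA, TFEB and GABARAP closed the order in both groups. GABARAPL1 was 25th of 33 in the knockdown and 19th in the control. Gene length here counts all annotated exons of a gene together, so the order depends on the annotation. It was 2038 bases for CTSZ, 7654 for SQSTM1 and 7428 for CTSB. In CPM the knockdown means were 164.4 for CTSZ, 516.5 for SQSTM1 and 470.9 for CTSB, and the control means 173.2, 514.2 and 495.0.

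**Figure D4:**
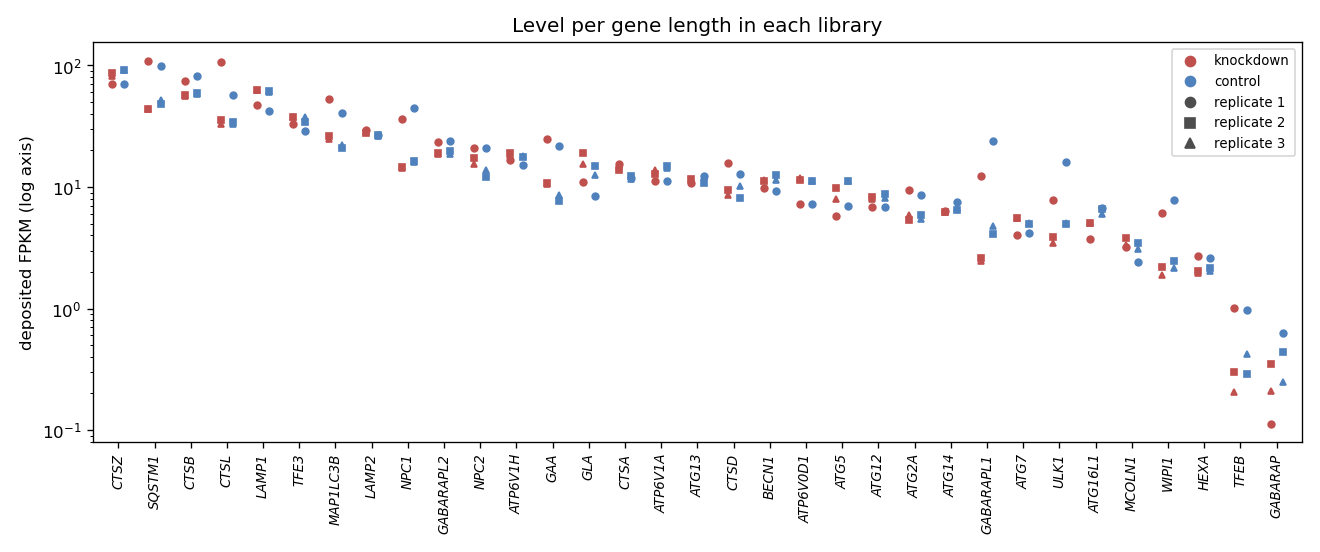
Deposited FPKM (log axis) of each member in every library, knockdown in red left of control in blue, with marks for the replicate number, ordered by the knockdown mean. Levels run from CTSZ to GABARAP, and replicate 1 (circles) stands above the other libraries in GABARAPL1, NPC1, GAA and SQSTM1 of both groups.

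The other genes of the pathway were taken from a list of 142 arranged by role, of which 134 were tested. In the blocked edgeR fit 8 rose and 12 fell, 14.9% against 13.5% of all genes, with a median log2 fold change of 0.0096. Of 36 hydrolases and their cofactors 7 rose and 0 fell (19.4% rising against 5.48% of all genes), with a median of 0.13 and 29 of 36 above 0. Of 23 genes of the autophagy machinery 0 rose and 4 fell (17.4% falling against 8.01%), with a median of -0.0062. The 4 were NRBF2, RB1CC1 and, named after their values were seen, TMEM41B (-0.42) and RUBCN (-0.36). TMEM41B lost the call without pair 2 and RUBCN without pair 3. The role does not separate genes that promote autophagy from genes that restrain it. Leaving out a pair moved the counts by role: without pair 1, 11 of the hydrolase genes rose and 1 fell. Without pair 2 it was 2 that rose (LGMN and SGSH), while 2 machinery genes fell. The shares over all genes moved too, with 12.7% rising and 14.9% falling without pair 1, and 2.01% and 4.09% without pair 2. These counts are descriptions without a test of the list. Among the hydrolase genes, larger fold changes that did not pass were those of IDUA, CTSS and FUCA1, all named after their values were seen. IDUA, the iduronidase of glycosaminoglycan breakdown, was at 0.57 (edgeR adjusted p = 0.0819) and the protease CTSS at -0.88 (edgeR adjusted p = 0.0681). FUCA1 was at -0.67 (edgeR adjusted p = 0.254), on 7 to 18 counts in the knockdown and 9 to 31 in the control libraries.

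Among the hydrolase genes that passed, the largest rise was that of LGMN, the asparaginyl endopeptidase legumain, at 86.3, 51.2 and 48.6 CPM in the knockdown and 57.4, 35.2 and 35.3 CPM in the control (log2 fold change 0.53 ± 0.07, SE; edgeR adjusted p = 0.00309). SGSH, the heparan sulfate sulfamidase deficient in Sanfilippo syndrome, was at 55.6, 38.2 and 42.4 CPM in the knockdown and 36.7, 31.3 and 29.3 CPM in the control, without overlap (0.47 ± 0.09, SE; adjusted p = 0.0104 in edgeR). Called hydrolase genes with smaller rises, named after their values were seen, were IDS (0.27, edgeR adjusted p = 0.0341) and DPP7 (0.22, edgeR adjusted p = 0.0432). Both were lost without pair 2, without pair 3 and in DESeq2 with the block. DPP7 was also lost in edgeR with RLE factors (adjusted p = 0.0503) and without the low-count filter (0.0704). The tripeptidyl peptidase TPP1 (0.41), cathepsin C CTSC (0.33) and the thioesterase PPT1 (0.30) rose too, as did the pump subunit ATP6V0E1 (0.27), with edgeR adjusted p of 0.00861 to 0.0281. CAP1 lies opposite 23.4% of the exon bases of PPT1. On the same strand other genes share 11.6% of those of TPP1 and 17.4% of those of IDS. The part of these overlaps in the counts was not tested. PSAP, the saposin precursor and the gene of its role with the highest mean CPM that did not pass, had a log2 fold change of 0.08 (adjusted p = 0.343 in edgeR).

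Among the genes of the list that passed, the largest falls were those of NRBF2, a subunit of the class III lipid kinase complex with ATG14, and FNIP2, a folliculin partner in nutrient sensing. NRBF2 was at 17.7, 19.1 and 17.7 CPM in the knockdown and 38.1, 29.5 and 26.9 CPM in the control (log2 fold change -0.78 ± 0.12, SE; edgeR adjusted p = 0.00524). FNIP2 (-0.73), the membrane protein SCARB2 (-0.69), which carries glucocerebrosidase to the lysosome, and the sorting receptor SORT1 (-0.52) fell without overlap of the groups, with edgeR adjusted p of 0.00408 to 0.00664. The transcription factor FOXO3 (-0.44) and the pump subunit ATP6V0A2 (-0.42) fell as well (edgeR adjusted p = 0.0113 and 0.033). RB1CC1, named after its values were seen as the scaffold of the ULK1 complex, fell without overlap of the groups, being at 137.2, 126.3 and 126.4 CPM in the knockdown and 199.6, 172.1 and 147.9 CPM in the control (-0.41 ± 0.07, SE; edgeR adjusted p = 0.00977).

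Of these 13 genes LGMN, SGSH, NRBF2, FNIP2, SCARB2 and SORT1 passed in each of the 7 alternatives that kept the block, and the other 7 lost the call without pair 2 (edgeR adjusted p of 0.063 to 0.127), ATP6V0E1 also without pair 3 and in DESeq2 with the block (adjusted p = 0.184 in edgeR and 0.069). Without the block 0 of the 134 passed in edgeR and 2 in DESeq2, SORT1 and NRBF2. In the other roles the genes of highest mean CPM over the 6 libraries that did not pass were, with their log2 fold changes, LAPTM4B (0.14) for membrane and transport, NCOA4 (-0.03) for receptors, VMP1 (-0.0062) for machinery, ATP6V1E1 (-0.07) for the pump and PRKAA1 (-0.09) for nutrient regulators. LAPTM4B passed without pair 1 (0.10, with an edgeR adjusted p of 0.000955), as did 27.6% of all genes.

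**Figure D5:**
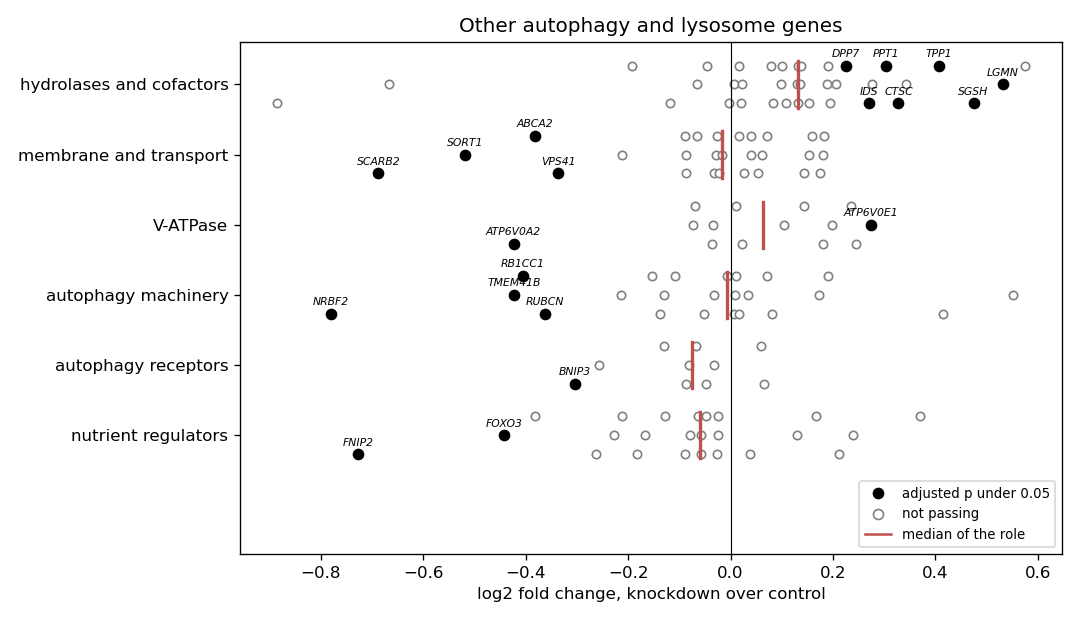
Fitted log2 fold change (knockdown over control) of the 134 other autophagy and lysosome genes tested, in a band per role; filled points passed an adjusted p under 0.05 and the red line is the median of the role. All 7 called hydrolase genes lie right of 0, and the called genes of membrane and transport, machinery, receptors and nutrient regulators lie left of it.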

How the data were processed

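RNA of Mum-2b cells was made into 6 libraries with a SMARTER mRNA-seq kit, per the labels' protocols. The authors deposited a table of raw counts and of FPKM for each gene, per the file headers. Submitters' processing notes name hg38; the aligner, counter and use of strand were not given in the sources used here. Gene positions and exon lengths of all 58735 genes equalled GENCODE release 29.

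Differential expression used edgeR 4.0.16 under R 4.3.3 on the deposited counts (filterByExpr, TMM, robust glmQLFit). Group and replicate number were terms, with Benjamini-Hochberg adjustment and a threshold of 0.05. SE is the absolute log2 fold change over the square root of F. The fit without the block, DESeq2 1.42.0, RLE and upper-quartile factors, no filter, and each pair left out were alternatives. Deviations from the group mean correlated by 0.86, 0.70 and 0.68 between same-numbered libraries, but replicates 2 and 3 correlated as well across numbers (0.69), so the pairing rests on number 1 and comes from the data, not the labels. The block left 2 residual degrees of freedom. Members and lists were chosen with earlier results of these data known. Per-library values were given for called members, the member of highest CPM per role, and, after their values were seen, CTSL, CTSZ, LAMP2, NPC1, NPC2, TFEB, GABARAPL2, GABARAP and WIPI1. Of the other list the 6 largest rises and 6 largest falls among called genes, and per role the gene of highest mean CPM that did not pass, were named, besides those said to be named after their values were seen. The method was tested on simulated data.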

Additional observations from a re-analysis of the deposited data

How the results depend on the processing

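With the replicate block, 8 members, 20 of the other pathway genes and 2002 genes in all were called. Without the replicate block edgeR called 0, 0 and 0. The NELFCD log2 fold change was -1.30 with the block (edgeR adjusted p = 0.00046). Without the block it was -1.27 in edgeR and did not pass (adjusted p = 0.532), while in DESeq2 it was -1.28 and passed (adjusted p = 0.0132). DESeq2 with the block called 5 members, and without it 0 members, 2 of the other genes and 161 genes in all. Leaving out 1 pair at a time gave 2 (without pair 2) to 12 members (without pair 1), 7 to 35 of the other genes and 932 to 4090 genes, on 1 residual degree of freedom. The members' median of -0.0076 became 0.0055 without the block and 0.039 with upper-quartile factors, and -0.021 to 0.038 without a pair. Of 296 values of single members under an alternative, 246 kept direction and call, 29 lost the call, 5 gained it and 16 changed sign, none of the 16 passing in edgeR or DESeq2. The sign changes were HEXA (0.0055) and SQSTM1 (0.0064) without the block, and with upper-quartile factors HEXA (0.047), GABARAPL2 (0.036), ATG13 (0.015), BECN1 (0.039) and ATG12 (0.028), with NCOA4 (0.015) and VMP1 (0.041) of the other genes. Without a pair the ranges crossing 0 were -0.011 to 0.27 for CTSD, -0.045 to 0.023 for HEXA, -0.48 to 0.073 for TFEB, -0.18 to 0.015 for SQSTM1, -0.026 to 0.0019 for GABARAPL2, -0.11 to 0.027 for ATG13, -0.076 to 0.062 for BECN1, -0.047 to 0.0099 for ATG12, -0.030 to 0.024 for VMP1 and -0.14 to 0.0037 for ATP6V1E1. The cause was not tested.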

Other observations

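Some genes of the pathway that many cell types express were listed at or near 0. ULK2 and GALC had 0 counts in all 6 libraries, where a count of 0 allows up to 3 counts, or 0.18 to 0.21 CPM, for counting error only. CLN3 averaged 0.344 CPM in the knockdown and 0.564 CPM in the control, and CD68, a macrophage marker that is also a lysosomal protein, 0.103 and 0.154 CPM. Same-strand exons of other annotated genes covered 81.7% of the exon bases of CD68 (AC016876.2), 30.5% of GABARAP and 25.2% of CLN3 (AC138894.1), but 0% of ULK2 and GALC. The part of shared exons in these levels was not tested.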
